A study of Homo sapiens with 6 samples.

Results

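Transcript levels of 10 enzymes of serine synthesis and one-carbon metabolism were described after knockdown of UBE2S in A375 cells, an established line from a human melanoma. The enzymes were PHGDH, PSAT1, PSPH, SHMT1, SHMT2, MTHFD1, MTHFD2, MTHFD1L, ALDH1L2 and GLDC, chosen by name as 10 of the 18132 genes that the arrays measured. A gene was read by every probe set whose only gene symbol in the array annotation was its own, 35 probe sets in all, and its value was the mean of them. UBE2S knockdown cells carried a short hairpin RNA against UBE2S delivered by lentivirus, and control A375 cells were the comparison, with 3 biological replicates each and 1 array per replicate. UBE2S is a ubiquitin-conjugating enzyme of the anaphase-promoting complex. What the control cells received, the number of hairpins or clones and the time after infection are not given in the sources used here, and the labels spell the target in 2 ways. The labels do not say whether the replicates were separate infections, so the tests measure the spread between these samples.

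Serine is made from a glycolytic intermediate in 3 steps, catalysed by PHGDH, PSAT1 and PSPH. Serine hydroxymethyltransferases then split serine into glycine and a one-carbon unit carried on folate, SHMT2 in mitochondria and SHMT1 in the cytosol. In mitochondria MTHFD2 and MTHFD1L turn this unit into formate, which leaves for the cytosol, where MTHFD1 puts it back on folate for the synthesis of purines and thymidylate and for methylation. ALDH1L2 oxidizes the mitochondrial formyl unit to carbon dioxide, and GLDC is the decarboxylase of the glycine cleavage system, which makes a one-carbon unit from glycine. In mammalian cells the transcription factor ATF4 raises the serine and mitochondrial folate genes when amino acids are short, and MYC is known to raise several of them too. PHGDH is amplified in some melanomas.

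The deposited log2 expression values had the median over the 6 arrays subtracted from every probe set, so that they show differences between arrays and no absolute level. All changes are log2 differences, knockdown minus control. The UBE2S transcript was lower in the knockdown arrays (-2.09, SE 0.04, limma adjusted p = 9.23e-08), which checks the labels. It was read by 1 probe set, with the suffix _s_at that marks sequence shared with other transcripts, so no unshared probe set reads UBE2S. Array medians lay between -0.0089 and 0.0037. Among the control probe sets for RNA integrity, the gap between the 3' and 5' ends of ACTB was larger by 0.191 in knockdown arrays and did not overlap between the groups, and that of GAPDH was larger by 0.0226 and overlapped. Summed centred levels of 7 melanocyte markers were 0.21 to 0.53 in knockdown arrays and -0.59 to -0.15 in control arrays, with S100B changed by 1.09 and MITF by -0.72. Without S100B, left out after its value was seen, the sums were -0.30 to -0.036 in knockdown arrays and -0.068 to 0.42 in control arrays. For 4 blood cell markers the sums were 0.019 to 0.17 in knockdown arrays and -0.31 to 0.22 in control arrays. For 4 fibroblast markers they were 0.19 to 0.45 in knockdown arrays and -0.57 to -0.28 in control arrays, with LUM changed by 0.93 and DCN by -0.23. Without LUM, left out in the same way, they were -0.14 to -0.052 in knockdown arrays and 0.033 to 0.15 in control arrays. The part of these differences in the results was not tested. The levels of lineage markers, and with them the cell line's identity, could not be read from centred values. Bulk RNA cannot tell fewer cells of a kind from less RNA per cell.

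Most of the 10 enzymes were lower in UBE2S knockdown cells. In limma, with Benjamini-Hochberg adjustment across the 18132 genes and a threshold of 0.05, 7 fell (SHMT2, PHGDH, PSAT1, MTHFD1L, MTHFD2, MTHFD1 and ALDH1L2), 2 rose (SHMT1 and GLDC) and PSPH did not pass. Over all genes, 18.6% fell and 21.4% rose, 40.1% in either direction. The median change of the 10 enzymes was -0.32, beside -0.0038 for all genes. The median absolute change was 0.38 for the 10 enzymes and 0.11 for all genes. None of the 10 overlapped between the groups, which also held for 50.0% of all genes.

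**Figure D1:**
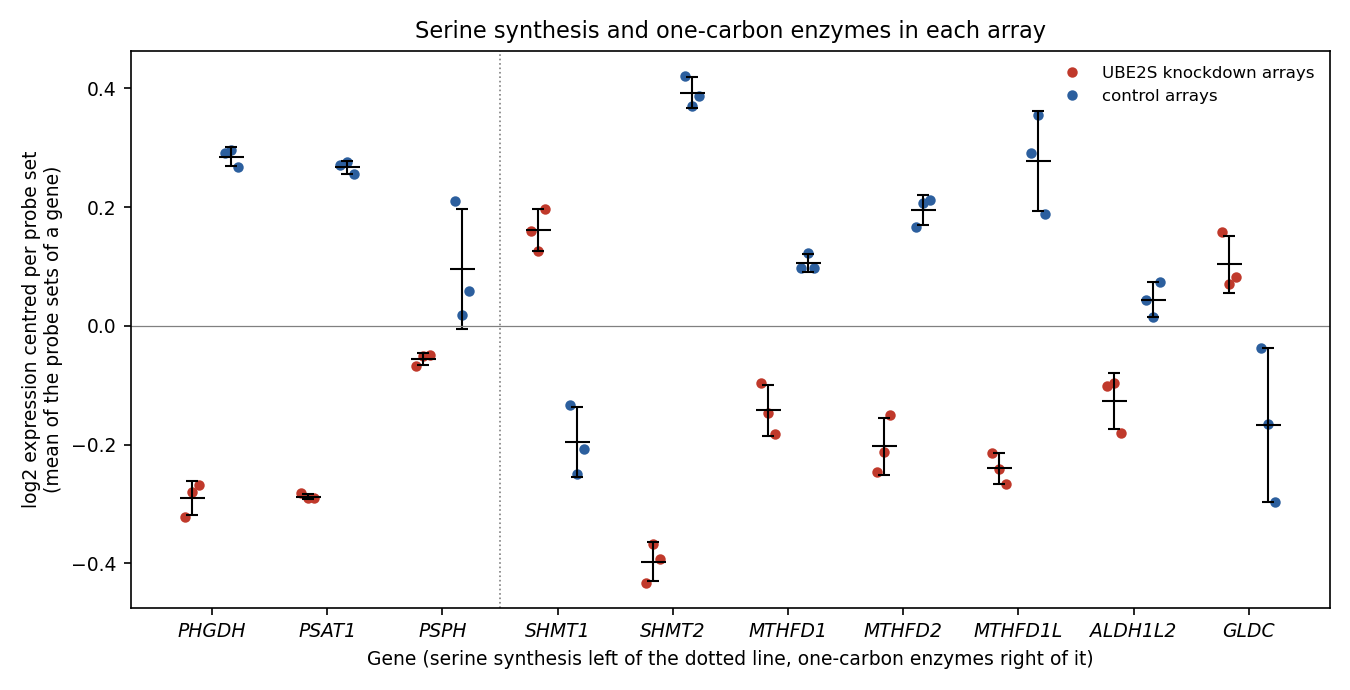
Centred log2 expression of the 10 enzymes (vertical axis, mean of the probe sets of a gene) in 3 UBE2S knockdown arrays (red, left of each pair) and 3 control arrays (blue, right). Points are arrays, and bars are the mean ± SD (n = 3). SHMT1 and GLDC stand higher in knockdown arrays and the other 8 genes lower, with a gap between the groups for every gene.

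In the serine synthesis branch, PHGDH and PSAT1 fell by similar amounts and PSPH, the last step, changed least. PHGDH, which commits 3-phosphoglycerate to serine, had centred log2 values of -0.32, -0.28 and -0.27 in knockdown arrays, against 0.29, 0.30 and 0.27 in control arrays. The groups stood far apart and each was tight. The change was -0.57 (SE 0.04, limma adjusted p = 8.45e-06), so that 67.1% of the control signal was left. PHGDH rests on 1 probe set, of the high signal class. Signal classes are coarse ranges of the level before centring, read from the rounding of the values, and a probe set of the high class can still read background.

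PSAT1, the aminotransferase of the middle step, had values of -0.28, -0.29 and -0.29 in knockdown arrays, against 0.27, 0.28 and 0.26 in control arrays. Its within-group SDs of 0.0045 and 0.011 belonged to the average of 8 probe sets. The change was -0.55 (SE 0.03, limma adjusted p = 7.35e-06), or 68.1% of the control signal. All 8 PSAT1 probe sets fell, with changes of -0.76 to -0.45. The lowest of these, an _s_at probe set, was also the least even, with a knockdown SD of 0.20.

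PSPH, the phosphatase that releases serine, had values of -0.068, -0.051 and -0.049 in knockdown arrays, against 0.21, 0.018 and 0.059 in control arrays. The knockdown arrays were close together, while control replicate 1 stood above the other two. The change of -0.15 (SE 0.05) missed the threshold with a limma adjusted p of 0.0531. Without control replicate 2 it passed at -0.19, and without control replicate 1 it stood at -0.094. Of the 3 PSPH probe sets, 1 fell (-0.22, SE 0.05), and the others gave -0.14 and -0.089. All 3 carry the suffix _s_at or _x_at, which the array maker gives to probe sets shared with other sequences, so no unshared probe set reads PSPH. PSPH minus PHGDH, taken within each array, was 0.23 ± 0.02 in knockdown arrays and -0.19 ± 0.10 in control arrays (SD, n = 3 each). That difference of 0.42 had a two-sided exact permutation p of 0.1, the smallest that 3 against 3 arrays allow.

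Of the 10 genes, SHMT2 had the largest change and its cytosolic counterpart SHMT1 the largest in the other direction. SHMT2 had centred log2 values of -0.43, -0.37 and -0.39 in knockdown arrays, against 0.42, 0.37 and 0.39 in control arrays. No knockdown array came near a control array. The change was -0.79 (SE 0.04, limma adjusted p = 2.30e-06), a 1.73-fold reduction that left 57.9% of the control signal, and 175 of 18132 genes had a lower value. All 4 SHMT2 probe sets were of the high signal class and fell, with changes of -0.86 to -0.70. Most carry the suffix _x_at for shared sequences, and without those the change was -0.83 (limma adjusted p = 2.80e-06).

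SHMT1 had values of 0.16, 0.13 and 0.20 in knockdown arrays, against -0.13, -0.25 and -0.21 in control arrays. Every knockdown array was higher than every control array. The rise was 0.36 (SE 0.04, limma adjusted p = 2.85e-04), 1.28-fold. Its probe sets did not agree: 4 rose, by 0.28 to 0.53, and 1 stood at -0.057 (SE 0.08) and did not pass. This discordant probe set is the only one of SHMT1 without a suffix for shared or multiple transcripts. Leaving out 1 probe set at a time gave SHMT1 changes between 0.31 and 0.46. Within arrays, SHMT2 minus SHMT1 was -0.56 ± 0.06 in knockdown arrays and 0.59 ± 0.03 in control arrays (SD, n = 3 each). The difference of -1.15 had a two-sided exact permutation p of 0.1.

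In the mitochondrial steps from serine to formate, both MTHFD2 and MTHFD1L fell. MTHFD2, which oxidizes the folate-bound unit, had values of -0.25, -0.21 and -0.15 in knockdown arrays, against 0.17, 0.21 and 0.21 in control arrays. The groups were separate by more than the spread within either. Its change was -0.40 (SE 0.04, limma adjusted p = 1.01e-04), or 75.9% of the control signal. All 5 MTHFD2 probe sets were of the high class and fell, with changes of -0.49 to -0.35.

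MTHFD1L, the ligase that frees formate, had values of -0.21, -0.24 and -0.27 in knockdown arrays, against 0.29, 0.35 and 0.19 in control arrays. Control arrays spread more widely than knockdown arrays, without reaching them. The change was -0.52 (SE 0.05, limma adjusted p = 7.52e-05), or 69.8% of the control signal, and all 4 probe sets fell, with changes of -0.61 to -0.41. MTHFD1, the cytosolic enzyme that joins formate to folate, had values of -0.097, -0.15 and -0.18 in knockdown arrays, against 0.097, 0.12 and 0.097 in control arrays. It was lower in each knockdown array, by less than its mitochondrial counterpart. Its change was -0.25 (SE 0.04, limma adjusted p = 0.00101), read by 1 probe set. MTHFD1L minus MTHFD1 was -0.098 ± 0.02 in knockdown arrays and 0.17 ± 0.07 in control arrays (SD, n = 3 each). This difference of -0.27 had a two-sided exact permutation p of 0.1, and over the 3 such comparisons each Benjamini-Hochberg adjusted p was also 0.1.

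ALDH1L2 and GLDC, the other mitochondrial enzymes, had smaller changes of opposite sign. ALDH1L2 had values of -0.10, -0.096 and -0.18 in knockdown arrays, against 0.044, 0.016 and 0.074 in control arrays. In this mean of 2 probe sets, all knockdown arrays were lower. The change was -0.17 (SE 0.04, limma adjusted p = 0.00929). Of its 2 probe sets, 1 fell (-0.21, limma adjusted p = 0.0496). The other, of the low signal class, stood at -0.13, overlapped between the groups and did not pass. Nor did the gene when that probe set alone stood for it (limma adjusted p = 0.331). The probe sets disagreed within the knockdown group. The low-class one stood at 0.10 in replicate 2 and -0.32 in replicate 3, and the other at -0.29 and -0.037. Their knockdown SDs were 0.21 and 0.13, against 0.047 for the mean, to which the gene's SE belongs.

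GLDC had values of 0.16, 0.070 and 0.082 in knockdown arrays, against -0.037, -0.16 and -0.30 in control arrays. The groups did not overlap, and the control SD of 0.13 was the largest within-group SD among the 10 genes. The rise was 0.27 (SE 0.07, limma adjusted p = 0.0116), 1.21-fold. Its 2 probe sets gave 0.36 in a shared _s_at probe set, which rose, and 0.18 (SE 0.11), which did not pass. The gene's call was lost without the shared probe set (adjusted p = 0.258) and with the arrays centred on hybridization or on poly-A spike-ins (adjusted p = 0.234 and 0.0588). The 3 partners of GLDC in the glycine cleavage system did not pass the test, and 0 had an unadjusted p under 0.05 in limma. At that unadjusted threshold 4040 of all 18132 genes fell and 4461 rose. AMT, the aminomethyltransferase, stood at 0.013 (SE 0.04), the hydrogen carrier protein GCSH at -0.064 (SE 0.12) and DLD, a dehydrogenase that it shares with other complexes, at 0.011 (SE 0.04). The 9 AMT probe sets ranged from -0.19 to 0.21, and 1 of them rose. With the arrays centred on hybridization spike-ins, AMT (-0.15) and DLD (-0.16) passed as falls, and DLD also when read by its most variable probe set alone (-0.24).

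**Figure D2:**
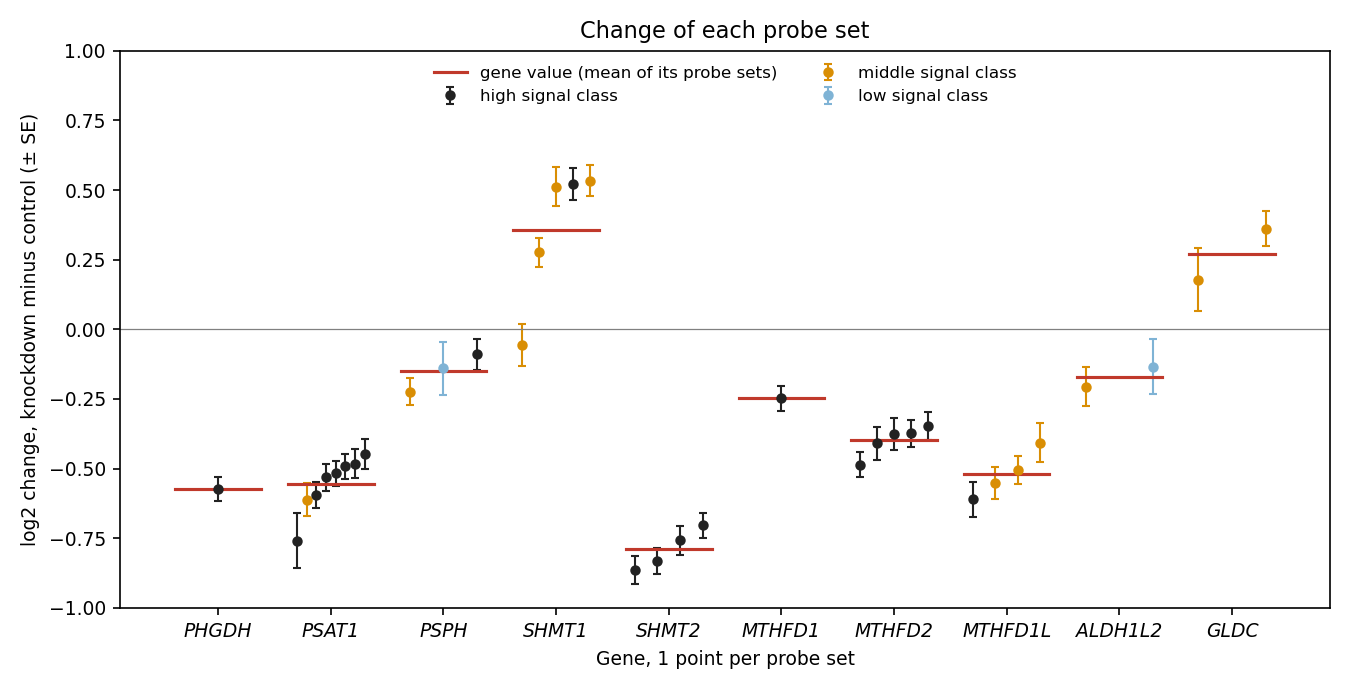
Log2 change (knockdown minus control, ± SE) of each of the 35 probe sets of the 10 enzymes, coloured by signal class, with the gene value as a red line. The probe sets of PSAT1, SHMT2, MTHFD2 and MTHFD1L all lie below 0, and 1 of 5 probe sets of SHMT1 lies at -0.057 apart from the others.

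At the level of probe sets, 25 of the 35 fell, 5 rose and 5 did not pass, where 17.4% of all 49293 probe sets fell and 19.5% rose, 36.9% in either direction. Without overlap between the groups were 30 of the 35, beside 48.2% of all probe sets. By signal class, 21 of the 35 were high, 12 middle and 2 low.

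Ordered by change, the genes ran from SHMT2 through PHGDH, PSAT1, MTHFD1L, MTHFD2, MTHFD1, ALDH1L2, PSPH and GLDC to SHMT1. From PHGDH to MTHFD2 neighbours could not be told apart, since their difference within each array overlapped between the groups. The same held for ALDH1L2 and PSPH and for GLDC and SHMT1. No overlap was found for SHMT2 and PHGDH (gap 0.21), MTHFD2 and MTHFD1 (0.15), MTHFD1 and ALDH1L2 (0.077) or PSPH and GLDC (0.42). These gaps between neighbours, picked after ordering, were not tested, and 3 against 3 arrays allow no exact permutation p below 0.1. On the whole array, 0.965% of genes had a lower change than SHMT2, and 18.0% had a lower change than PSPH.

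**Figure D3:**
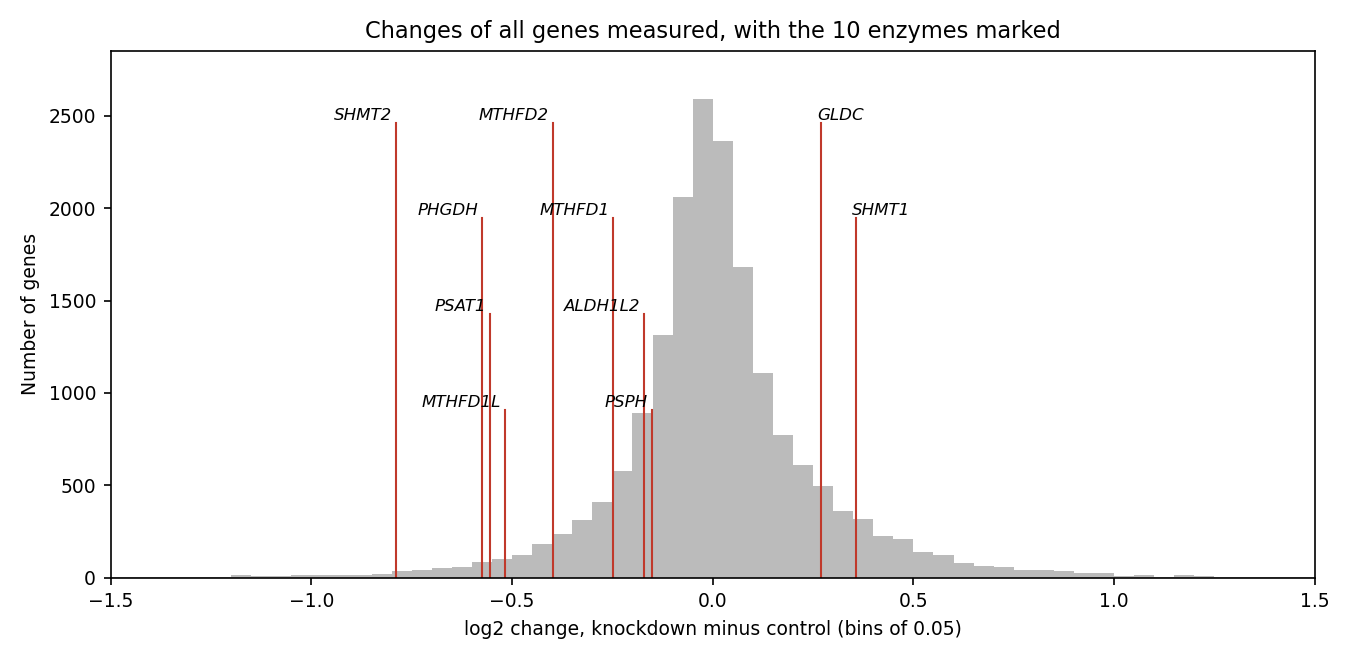
Distribution of log2 changes (knockdown minus control) of the genes measured, in bins of 0.05 between -1.5 and 1.5, with the 10 enzymes marked by red lines. SHMT2 at -0.79, PHGDH at -0.57, PSAT1 at -0.55 and MTHFD1L at -0.52 lie in the lower tail.

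Promoter sequence is shown for 4 of the genes: PHGDH, the entry to the pathway, SHMT1, which rose, and the ligase pair MTHFD1L and MTHFD1, the members in which a motif was found. Each is the 250 bases before a transcription start listed by RefSeq in GRCh38.p14, and 7 of the 10 genes had such an entry. For PHGDH it is chr1:119711684-119711933 on the plus strand, for MTHFD1L the first of 4 listed starts, chr6:150866236-150866485 on the plus strand, for MTHFD1 chr14:64388103-64388352 on the plus strand, and for SHMT1 chr17:18363551-18363800 on the minus strand. Capitals mark matches, on either strand, to 3 motifs.
PHGDH: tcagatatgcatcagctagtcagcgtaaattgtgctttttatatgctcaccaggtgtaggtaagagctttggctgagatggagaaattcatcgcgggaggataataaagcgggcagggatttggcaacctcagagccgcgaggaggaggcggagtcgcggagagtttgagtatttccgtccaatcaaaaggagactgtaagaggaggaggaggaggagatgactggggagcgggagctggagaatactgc
MTHFD1L: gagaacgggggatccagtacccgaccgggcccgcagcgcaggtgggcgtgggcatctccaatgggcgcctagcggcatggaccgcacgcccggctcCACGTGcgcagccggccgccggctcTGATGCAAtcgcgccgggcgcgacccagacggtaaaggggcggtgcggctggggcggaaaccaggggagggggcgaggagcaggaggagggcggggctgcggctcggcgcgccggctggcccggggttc
MTHFD1: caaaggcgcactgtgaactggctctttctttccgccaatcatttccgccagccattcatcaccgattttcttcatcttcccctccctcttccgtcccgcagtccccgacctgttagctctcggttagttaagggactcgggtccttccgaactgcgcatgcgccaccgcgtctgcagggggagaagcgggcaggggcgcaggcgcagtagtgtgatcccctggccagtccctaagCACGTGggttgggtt
SHMT1: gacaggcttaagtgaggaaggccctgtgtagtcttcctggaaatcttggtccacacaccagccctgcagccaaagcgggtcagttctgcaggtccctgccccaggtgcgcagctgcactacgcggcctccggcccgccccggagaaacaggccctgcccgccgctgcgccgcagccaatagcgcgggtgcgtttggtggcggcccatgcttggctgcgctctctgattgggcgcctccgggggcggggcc

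The motifs were TGATGNAA, the composite element bound by ATF4, CACGTG, the E-box bound by MYC, and TGACNNNGC, the core of the antioxidant response element bound by NRF2. Searched on both strands, they occurred in 3.14%, 6.34% and 10.9% of 35116 windows of the same length, from all starts listed for genes with an entry. These are shares of windows, not of genes, since a gene can have several listed starts. The window of MTHFD1L held the ATF4 element between bases 129 and 122 before the start and an E-box between bases 154 and 149, with no overlap. Of the 4 starts listed for MTHFD1L, the window of the third, which overlaps the first, held the same 2 matches, and those of the other two held none. MTHFD1 held an E-box between bases 15 and 10. The E-box reads the same on both strands. The other 5 genes with an entry held none of the 3 in their windows, and the letters say nothing of binding in these cells.

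Transcripts of 2 of these 3 factors fell. The MYC transcript fell (-1.11, SE 0.07, limma adjusted p = 1.15e-05) and so did that of ATF4 (-0.28, SE 0.04, adjusted p = 4.87e-04). Each was read by 1 probe set, that of MYC of the middle signal class, and no unshared probe set reads ATF4. NFE2L2, which encodes NRF2, stood at 0.11 (SE 0.04) and did not pass (adjusted p = 0.0505). Of 7 regulators measured, 2 fell and 2 rose beside 18.6% falls and 21.4% rises over all genes. The rises were those of KDM4C, a histone demethylase, by 0.26 (SE 0.04) and KEAP1, the inhibitor of NRF2, by 0.18 (SE 0.04). The 5 KDM4C probe sets ranged from -0.24 to 0.44, and the one without a suffix turned the direction, as a fall that passed when it stood alone for the gene (-0.24, adjusted p = 0.0473). The KEAP1 call was lost when the arrays were centred on spike-in controls, of the hybridization kind (0.016) or the poly-A kind (0.086), and the KDM4C call with the hybridization spike-ins (0.095). The amount of ATF4 protein depends on more than its transcript, translation included, and was not measured.

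Among genes that supply or use one-carbon units or serine, falls outnumbered rises. Of 60 such genes listed, 52 were measured, and 23 fell, 3 rose and 26 did not pass, with a median of -0.087, beside 18.6% falls and 21.4% rises over all genes. Together with the regulators, 25 of 59 fell and 5 rose. Of 12 genes of purine synthesis, the pathway that takes formyl groups from folate, 11 fell and 0 rose, with a median of -0.25. PAICS, which makes a middle step of the purine ring, fell (-0.80, SE 0.03), as did PRPS1, which makes the ribose donor (-0.72, SE 0.05), and GART, which uses formyl-folate (-0.49, SE 0.04). The 5 probe sets of GART ranged from -0.79 to -0.11, and no unshared probe set reads PAICS.

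Among 10 transporters of serine, glycine and folate 4 fell and 0 rose, with a median of -0.066. The shares over all genes were 18.6% falls and 21.4% rises. SLC25A32, the carrier that takes folate into mitochondria, fell by more than any of the 10 enzymes (-1.02, SE 0.04), with -1.14 and -0.91 in its 2 probe sets. The neutral amino acid transporter SLC1A5 fell (-0.43, SE 0.03), as did the proton-coupled folate transporter SLC46A1 (-0.33, SE 0.04), whose most variable probe set gave -0.52. Of 7 other folate enzymes, 3 fell and 0 rose, with a median of -0.084. GGH, which trims folate tails, fell (-0.74, SE 0.05), as did TYMS, thymidylate synthase (-0.25, SE 0.03). MTHFD2L, the paralogue of MTHFD2, also fell (-0.66, SE 0.04), but its 4 probe sets ranged from -1.36 to -0.00082.

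Of 12 genes of the methionine cycle and transsulfuration, 5 fell and 2 rose, with a median of -0.060. Over all genes 18.6% fell and 21.4% rose. AHCY, which clears S-adenosylhomocysteine, fell (-0.91, SE 0.04), as did the methionine adenosyltransferases MAT2A (-0.38, SE 0.04) and MAT1A (-0.22, SE 0.06). For MAT2A, 5 of 6 probe sets fell and the sixth stood at 0.19, and the most variable one gave -0.59. The MAT1A call was lost without knockdown replicate 2 and without control replicate 2. CTH, which makes cysteine, rose by 0.41 (SE 0.07), and AHCYL2, a homologue of AHCY, by 0.15 (SE 0.04). The AHCYL2 call was lost without any one of 4 arrays and under both spike-in centrings. Neither of its 2 probe sets passed alone. Of 8 other serine and glycine enzymes 0 fell and 1 rose. That gene was SPTLC2, a subunit of the enzyme that uses serine for sphingolipids (0.17, SE 0.05). Its call was lost without knockdown replicate 3, without control replicate 2 and under both spike-in centrings. Of its 3 probe sets 1 rose (0.38), of the middle signal class, and the only one of the high class stood at 0.025. With the median of the probe sets SPTLC2 did not pass either (limma adjusted p = 0.172). At an unadjusted p under 0.05 in limma these 8 genes also gave 0 falls, and the purine, transport and other folate genes 0 rises. Over all 18132 genes 4040 fell and 4461 rose at that threshold.

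**Figure D4:**
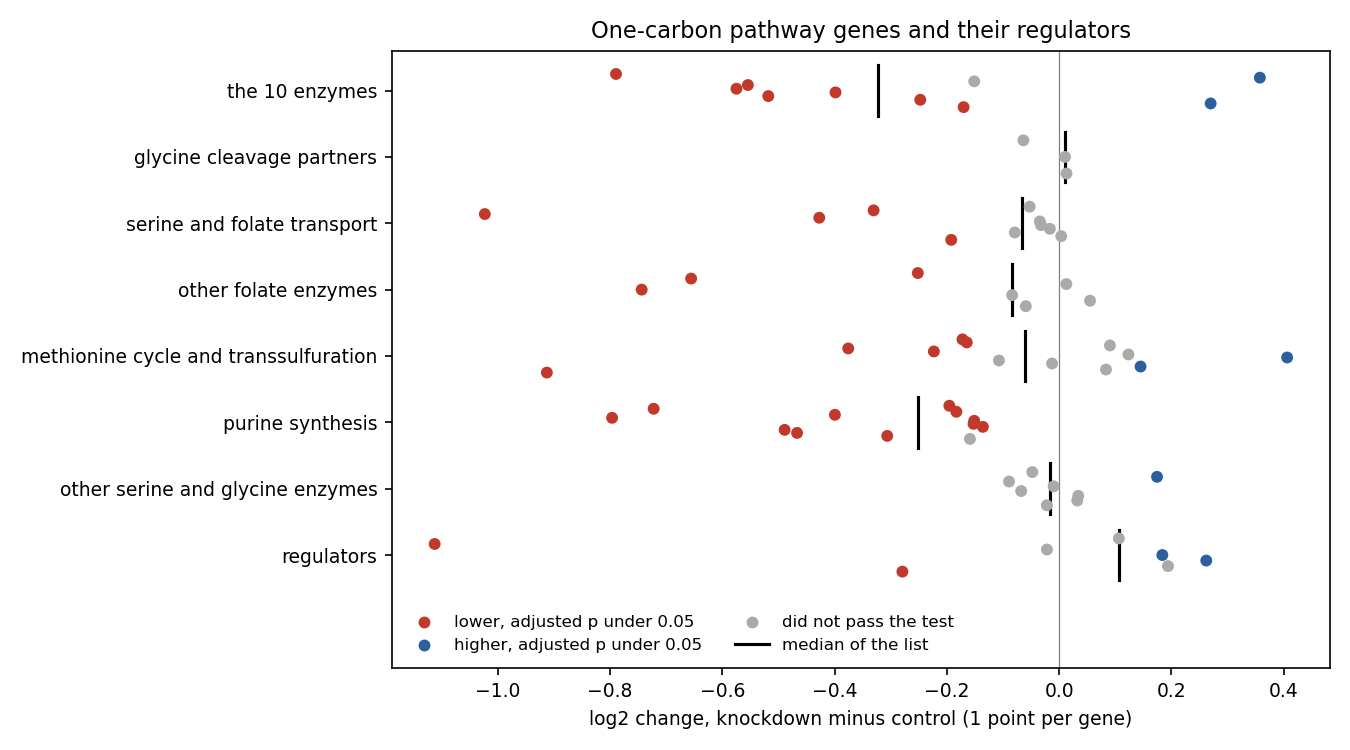
Log2 change (knockdown minus control) of the 10 enzymes and of the 59 other genes in 7 lists, 1 point per gene, red for falls and blue for rises that passed the test and grey for genes that did not. Black bars are list medians, at -0.32 for the 10 enzymes and -0.25 for purine synthesis, and below 0.11 in size for each of the other 6 lists.

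Genes with a pattern across the 6 arrays close to that of SHMT2 and of SHMT1 were sought by the root mean square distance of centred gene values. Closest to SHMT2 were INHBA, a subunit of the growth factor activin (distance 0.016), SLC3A2, the heavy chain of amino acid exchangers (0.020), POLR3GL, a subunit of RNA polymerase III (0.021), LEMD1 (0.022) and TMEM69 (0.023). Closest to SHMT1 were FBXL17, an F-box protein (0.013), CUEDC1 (0.020), CDIPT, which makes phosphatidylinositol (0.020), the neurotrophin BDNF (0.021) and TMEM101 (0.022). With 6 arrays in 2 groups, the distance mostly reflects a like change and a like spread.

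The scaling of the arrays shifted all changes alike. Centred on 18 hybridization spike-in probe sets, on which knockdown arrays were higher by 0.168, the arrays gave a median change of -0.17 over all genes. With 24 poly-A spike-in probe sets, 0.098 higher in knockdown arrays, it was -0.10. Over all genes, 9196 then fell and 1764 rose with hybridization spike-ins, and 6297 fell and 2486 rose with poly-A spike-ins. Under either centring 8 of the 10 enzymes fell, PSPH among them (-0.32 and -0.25), and SHMT1 rose (0.19 and 0.26). SHMT1 thus kept its direction, and GLDC, at 0.10 and 0.17, did not pass. MTHFD1 stood at -0.41 and -0.35, and the median of the 10 enzymes at -0.49 and -0.42. All 12 purine genes fell under either centring. So did 9 of the 10 transporters, and of the 7 other folate enzymes 6 fell with hybridization and 4 with poly-A spike-ins. The 8 other serine and glycine enzymes gave 4 falls and 2 falls, with 0 rises in both, and the 12 genes of the methionine cycle and transsulfuration 7 and 5 falls with 1 rise each.

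**Figure D5:**
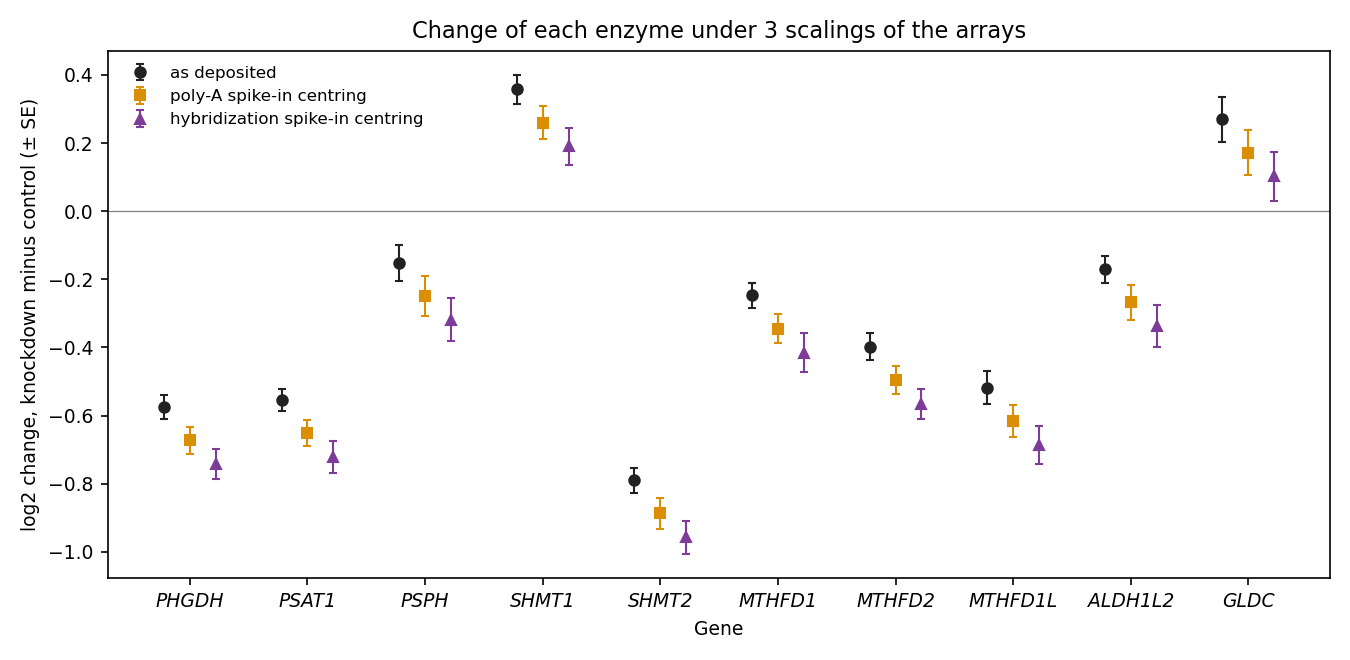
Log2 change (knockdown minus control, ± SE) of the 10 enzymes with the values as deposited, centred on poly-A spike-ins and centred on hybridization spike-ins. The changes shift downward together, SHMT1 stays above 0 at 0.36, 0.26 and 0.19, and GLDC stands at 0.27, 0.17 and 0.10.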

How the data were processed

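Per the labels' protocols, biotin-labelled cRNA from total RNA was hybridized to Affymetrix arrays. The deposited log2 values come from limma, RMA and affy, per the submitters' processing notes, with no version, role or order stated. The log base is taken from RMA's output. Each of the 49395 probe sets (102 of them array controls) had a median of 0 over the 6 arrays (at most 4.85e-07 in size), a centring the sources used here do not describe. Depth has no meaning for arrays, whose number limits the precision.

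Of 49293 probe sets without controls, 44988 had 1 symbol in the array annotation, 1832 several and 2473 none. A probe set listed for PHGDH together with another gene was not used. By gene number, 44961 matched a GRCh38.p14 gene table. Gene values are means of probe sets, without a filter, tested on all 6 arrays with limma 3.58.1 (lmFit, eBayes; R 4.3.3). P-values were adjusted over all genes or all probe sets. Differences between 2 members were tested by two-sided exact permutation of arrays. No 2 arrays of a group were copies (at most 140 identical values). The fit was tested on simulated data.

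Members, gene lists, tests and alternatives were chosen with earlier results of these data known. Named genes are all members, UBE2S, up to 3 changed genes per direction in each list, every gene of lists of at most 4, MYC, ATF4 and NFE2L2, and the 5 nearest patterns to SHMT2 and SHMT1. The high, middle and low signal classes (25.7%, 55.5% and 18.9% of probe sets) were read from the single-precision rounding step, which places a value between 8 and 16, between 4 and 8, or lower. Of 23 background control probe sets, 13 were low and 4 high. Alternatives were other summaries of probe sets, filters on suffix or class, median and spike-in centring, array weights, a robust variance model, a block for the replicate number, and each array left out in turn. Leaving out only _s_at and _x_at probe sets was added after seeing the data.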

Additional observations from a re-analysis of the deposited data

How the results depend on the processing

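Falls of SHMT2, PHGDH, PSAT1, MTHFD1L, MTHFD2 and MTHFD1 passed the test in each of 17 alternatives that measured them. With the high signal class only, 1 member rose, since GLDC has no probe set of that class, and 1 of 21 member probe sets rose, the other rising ones of SHMT1 and GLDC being of the middle class. Without _s_at and _x_at probe sets 1 member rose (GLDC at 0.18 did not pass), and 11 of 17 member probe sets fell and 2 rose, fewer being tested. Without _a_at probe sets too, only SHMT1 was measured among the members, at -0.057, so no count of members is given. There KDM4C turned to a fall that passed (-0.24, adjusted p = 0.0473), DLD fell (-0.24), and of 21 other pathway genes 6 fell and 1 rose. Hybridization spike-in centring gave 1 rise among members, and 43 falls and 1 rise among 59 other pathway genes, with AHCYL2 at -0.023. Poly-A centring gave 1 rise among members and 2 among other pathway genes. These follow from the common shift. PSPH passed as a fall without the low class, with median or either spike-in centring and with array weights.

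Leaving out 1 array gave 7 to 8 falls and 2 rises among members, 20 to 24 falls and 3 to 5 rises among other pathway genes (3 without control replicate 2), and 24 to 25 falls and 5 to 6 rises among member probe sets. Shares of all genes called without 1 array, under the filters or with the replicate block are not given here. SHMT2 minus SHMT1 ranged from -1.18 to -1.13, MTHFD1L minus MTHFD1 from -0.31 to -0.24 and PSPH minus PHGDH from 0.38 to 0.48.

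The replicate numbers did not pair the arrays: same-numbered arrays had correlations of -0.030, -0.016 and -0.10 across genes. With the replicate block 7 members fell and 2 rose, and 21 other pathway genes fell and 4 rose. SHMT2 minus SHMT1 was -1.15 with a two-sided exact sign-flip permutation p of 0.25, the smallest that 3 pairs allow. Centred values hold no level, so signal over background is unknown.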
